A study of Homo sapiens with 118 samples.

Results

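The HOX genes are the homeobox transcription factors of the HOXA, HOXB, HOXC and HOXD clusters. They were taken as every row of the count table whose symbol was HOXA, HOXB, HOXC or HOXD followed by a number only. This gave 40 features, each a detector probe, for 39 genes, out of 22068 features for 19470 gene symbols. There were 11 features in the HOXA cluster, 10 in HOXB, 10 in HOXC for 9 genes, since HOXC6 had 2 probes, and 9 in HOXD.

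The measurements were made in HepaRG, an established human cell line of the liver, in its differentiated state, in which hepatocyte-like and biliary-like cells grow side by side. The cells were exposed for 72 h, with the chemical renewed daily, to 1 of 8 histone deacetylase (HDAC) inhibitors at 5 concentrations, C1 (lowest) to C5 (highest). Every group had 3 libraries from 3 batches of HepaRG cells (replicates 1, 2 and 3), except panobinostat C3 and trichostatin A C4, which had 2 and lacked batch 3. The assay was TempO-Seq. It ligates paired detector probes on a target transcript and counts the products by sequencing. The C1 and C5 doses were 0.0417 and 0.860 µM for apicidin, 0.177 and 3.90 µM for mocetinostat, 0.00147 and 0.0840 µM for panobinostat, and 4.94 and 94.5 µM for scriptaid. They were 1.14 and 44.0 µM for tacedinaline, 0.0188 and 1.52 µM for trichostatin A, and 0.405 and 23.5 µM for vorinostat. The doses labelled for valproic acid were 100.478 at C1 and 3038 at C5, but smaller numbers stand in the treatment protocol, so its unit is not settled. Panobinostat, scriptaid, trichostatin A and vorinostat are hydroxamates, mocetinostat and tacedinaline are benzamides, apicidin is a cyclic tetrapeptide, and valproic acid is a short branched carboxylic acid. Solvent controls were not analysed here. Each chemical was compared with its own C1, so a change that had already taken place at C1 is not covered. The 8 inhibitors were not given at matched doses, and their values are therefore set side by side without a comparison at equal dose.

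In the embryo, HOX genes give cells their position along the head-to-tail axis. Their order within a cluster follows the order of the body regions in which they are used, with low numbers in the hindbrain and high numbers in the trunk, limbs and tail. Outside those regions the clusters are held inactive by Polycomb complexes, and retinoic acid opens them from the low-numbered end. HOX proteins bind DNA together with PBX and MEIS proteins of the TALE family. HDAC inhibitors raise histone acetylation, and the question put to these data was whether the clusters were read in these liver cells and whether that changed with concentration.

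Libraries held between 1061359 and 5250260 counts in total (median 3702007). At most 3 counts of a feature were treated as the floor, which corresponded to between 0.571 and 2.83 CPM, the counts scaled to a library total of 1000000, in the C1 and C5 libraries. Mean depth at C5 was below that at C1 in all 8 chemicals, by the most in vorinostat, from 3038905 to 1485592 counts. All 12 hepatocyte markers were counted at C1, and their summed level fell from a median of 63196 CPM at C1 to 16192 CPM at C5. Over the chemicals, 101 of 120 tests of these markers were called falling at C5 and 0 rising, where 13.4% of all tests fell and 11.6% rose. Of the 15 hepatocyte features, 14 fell in at least 6 chemicals, with mean log2 changes between -5.21 (FABP1) and -1.41 (SERPINA1). Of the biliary and progenitor markers, 11 of 33 tests were called rising and 0 falling. Of the stromal markers, 8 of 66 were rising and 27 falling, with 1 probe each of COL3A1 (mean log2 change -2.68), DCN (-1.50) and ACTA2 (-1.46) falling and COL1A1 (1.35) rising in at least 6 chemicals. The part of these shifts in the HOX values was not tested. The endothelial markers CDH5 and VWF and the leukocyte marker PTPRC had a mean of at most 3 counts at C1. The library of trichostatin A C1 replicate 3 stood apart from the other 23 C1 libraries. Its hepatocyte markers summed to 18985 CPM, against 52366 to 92897 CPM in the others, and its mean correlation with them over all features was 0.942, below the 0.971 that was the lowest among the others. Since these are bulk lysates, fewer cells of a type and less RNA per cell cannot be told apart.

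The start-site sequences of 3 HOXA genes are shown because their counts behaved differently. HOXA2 was counted in every library, and HOXA9 had no count in any library. HOXA7 lay at the floor in all C1 libraries and above it in all C5 libraries in 1 chemical. Each run is the 250 bases before the start site, 5′ to 3′ on the minus strand, from RefSeq on GRCh38.p14, with CpG dinucleotides in capitals. The positions are chr7:27102684-27102933 for HOXA2, chr7:27156676-27156925 for HOXA7 and chr7:27165538-27165787 for HOXA9.
HOXA2: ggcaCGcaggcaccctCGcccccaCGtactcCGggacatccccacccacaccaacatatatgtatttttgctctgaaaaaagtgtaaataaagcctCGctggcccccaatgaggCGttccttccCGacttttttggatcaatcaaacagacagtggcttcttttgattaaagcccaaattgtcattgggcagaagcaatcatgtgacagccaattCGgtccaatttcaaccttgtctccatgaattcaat
HOXA7: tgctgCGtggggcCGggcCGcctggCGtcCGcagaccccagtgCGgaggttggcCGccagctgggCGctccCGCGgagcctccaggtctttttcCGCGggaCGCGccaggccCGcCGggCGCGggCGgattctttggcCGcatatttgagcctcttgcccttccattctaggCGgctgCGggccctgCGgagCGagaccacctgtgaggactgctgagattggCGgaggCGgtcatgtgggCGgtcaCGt
HOXA9: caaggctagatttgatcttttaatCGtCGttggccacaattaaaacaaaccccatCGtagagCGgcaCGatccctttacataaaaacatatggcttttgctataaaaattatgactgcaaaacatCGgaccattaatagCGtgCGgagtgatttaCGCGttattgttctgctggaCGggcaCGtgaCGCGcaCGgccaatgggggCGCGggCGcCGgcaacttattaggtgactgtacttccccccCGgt
The HOXA2 run held 8 CpG dinucleotides, the HOXA7 run 28 and the HOXA9 run 20. The RefSeq table matched 20 of the 39 HOX genes, with 26 distinct start sites, since HOXC4 and HOXC5 share one. HOXA3 holds 7 of these sites, HOXB1 is the only HOXB gene among them, and HOXB9 and HOXC9 have none. In windows of 300 bases, from 250 before to 50 after the start, the HOX start sites had a median of 22.5 CpG dinucleotides, against 14 over all 34943 distinct start sites in the table. The letters TGATNNAT, a form of site bound by HOX and PBX proteins together, were searched on both strands. They were found in 3 of the 26 HOX windows, those of HOXA2, HOXB1 and HOXD11 (11.5%), and in 7.42% of all windows. A match of letters is a description and not a binding site.

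Most HOX features lay at or near the floor in every library. Of the 40 features, 33 (82.5%) never exceeded 10 counts in any of 118 libraries, against 28.0% of all features. The mean count per library was under 1 for 32 of 40 (80.0%), against 29.7% of all features. HOXA2 and HOXB9 were the only 2 with over 3 counts in more than 59 libraries (5.00%, against 58.7% of all features), and neither of them exceeded 3 counts in every library. The 8 features that stayed at or below 3 counts throughout were HOXA5, HOXA9, HOXA13, HOXB2, HOXB4, HOXC4, HOXC12 and HOXD8. HOXA9, which is used in blood stem cells, had 0 counts in all 118 libraries, and HOXB2 had 1 count in total. Whether each probe can detect its transcript was not tested, because no tissue or RNA that uses these genes was analysed here.

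**Figure D1:**
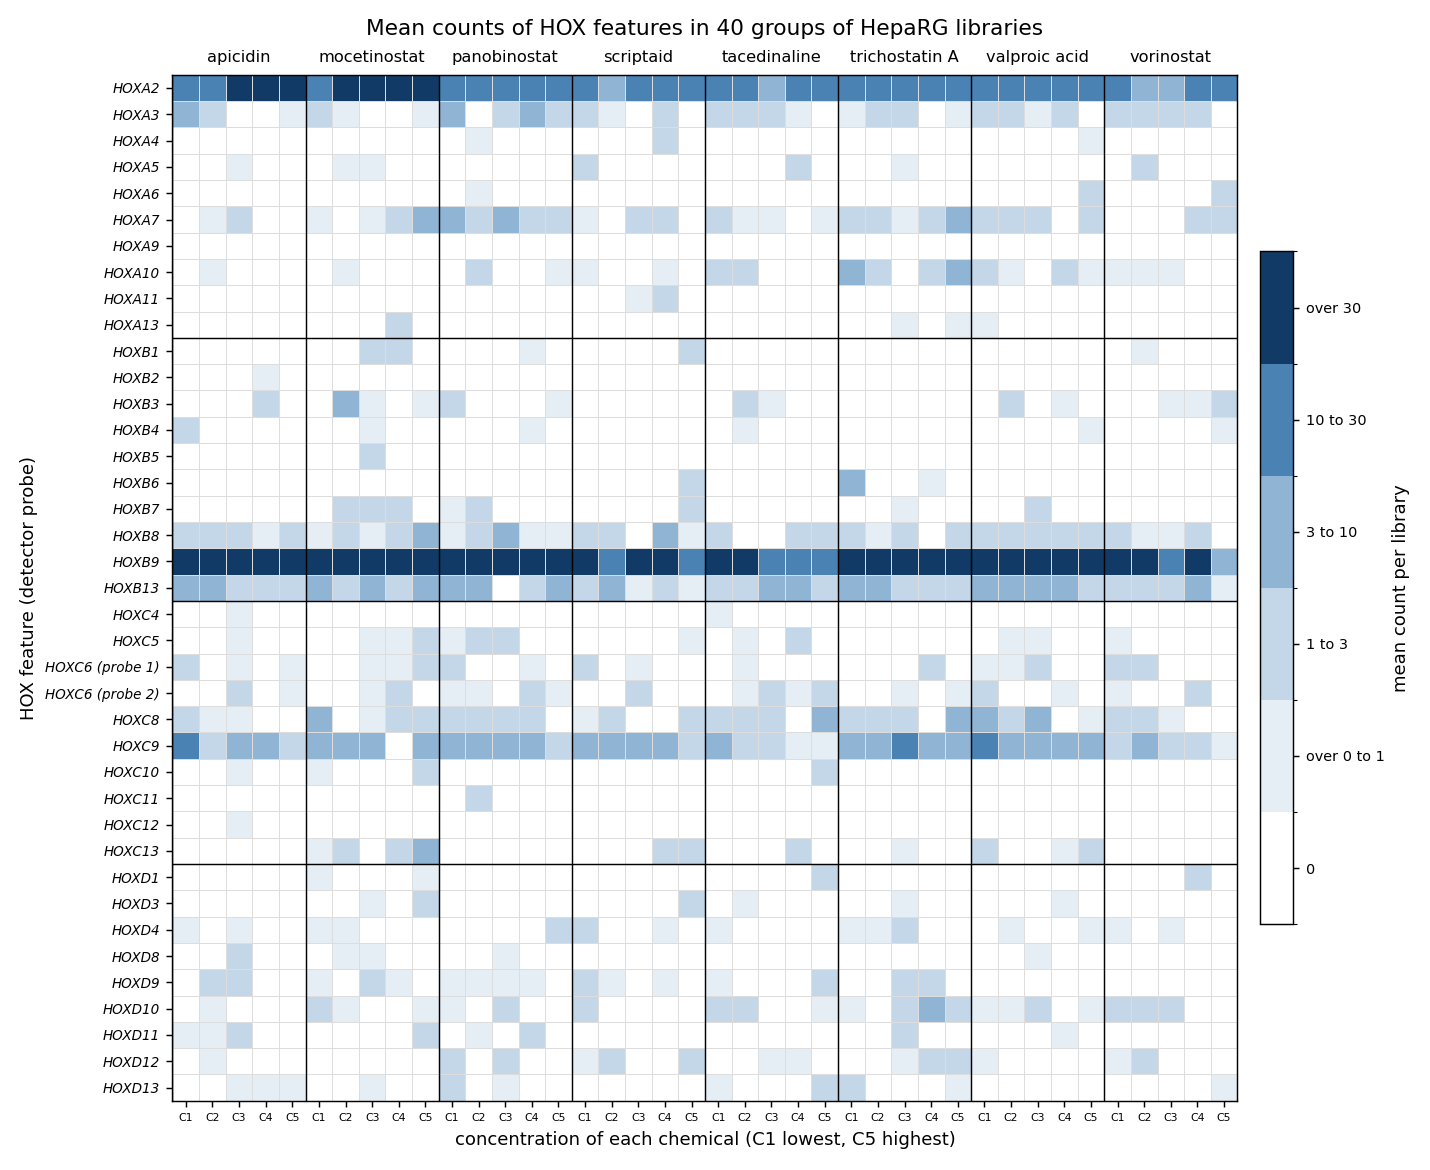
Mean count per library (colour steps, white is 0) of 39 HOX features (rows, by cluster and number) in the 40 groups (columns, 8 chemicals with C1 to C5 from left to right). Only HOXA2 and HOXB9 form continuous dark rows, HOXC9 and HOXB13 form pale ones, and the remaining rows hold scattered low values.

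The clusters differed in how many of their features were counted. Counts depend on the efficiency of each probe, so the following shares are shares of counts and not of expression. Of all HOX counts, 58.8% fell in HOXB, 29.9% in HOXA, 8.59% in HOXC and 2.63% in HOXD. Without HOXA2 and HOXB9, 14.2% of the HOXA values, 17.1% of the HOXB values, 17.8% of the HOXC values and 10.6% of the HOXD values were above 0.

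Within HOXA, HOXA2 stood among features that were counted rarely. HOXA2 specifies the identity of the second pharyngeal arch and of hindbrain segments. It had 0.486 to 25.3 CPM, with a median of 5.13 CPM. HOXA3, next to it, was 0 in 68 libraries and had at most 8 counts. HOXA7 was also 0 in 68 libraries, with at most 9 counts, and HOXA10 was 0 in 87, with at most 5. HOXA4, HOXA5, HOXA6, HOXA11 and HOXA13 were each 0 in 111 to 116 libraries.

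Within HOXB, HOXB9, a gene of the thoracic region, was above 0 in all 118 libraries and ranged from 0.942 to 38.0 CPM. HOXB13, known for its role in the prostate, was 0 in 32 libraries and exceeded 3 counts in 44, with a maximum of 16. HOXB8, adjacent to HOXB9, was 0 in 65 libraries and had at most 7 counts. HOXB3 had 13 counts in mocetinostat C2 replicate 1 and at most 1 in the other libraries of that group. HOXB1, HOXB2, HOXB4, HOXB5, HOXB6 and HOXB7 were each 0 in 109 to 117 libraries.

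Within HOXC, HOXC9, used in thoracic motor neurons, was 0 in 26 libraries and exceeded 3 counts in 55, with a maximum of 22. HOXC8, its neighbour, was 0 in 74 libraries. The 2 probes of HOXC6 were 0 in 100 and 97 libraries and had at most 7 and 6 counts. HOXC4, HOXC5, HOXC10, HOXC11, HOXC12 and HOXC13 were each 0 in 104 to 117 libraries. Within HOXD, none of the 9 features exceeded 8 counts, and each was 0 in 93 to 114 libraries. This set includes HOXD10, HOXD11, HOXD12 and HOXD13, the genes of the distal limb.

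The first comparison asked whether HOX features at the floor at C1 were counted at C5. Only 1 of 256 cases of a HOX feature and a chemical did so, counting features with at most 3 counts in all C1 libraries and over 3 in all C5 libraries. Over all features the share was 1.52% (916 of 60276 cases), and it ranged from 0.500% in trichostatin A to 2.62% in mocetinostat. The case was HOXA7 in mocetinostat. HOXA7, a gene of the thoracic region, had 1, 0 and 0 counts at C1, 0 in all C2 libraries, 0, 0 and 2 at C3, 6, 0 and 0 at C4, and 7, 8 and 6 at C5. Its C5 level was 2.02 ± 0.125 CPM (SD, n = 3) against 0.0778 ± 0.135 CPM at C1, and the groups did not overlap. The feature did not pass the filter on low counts in mocetinostat. Without the filter its log2 change at C5 was 4.03 (SE 2.16, adjusted p = 0.215, edgeR) and was not called, and its trend was 4.55 (SE 1.56, adjusted p = 0.0341, edgeR) and was called. In the other chemicals its C5 counts were 0 in all libraries of apicidin and scriptaid and at most 6 elsewhere. HOXA7 exceeded 3 counts in 17 of the 118 libraries, and its highest count, 9, was in panobinostat C1, where the counts were 9, 5 and 0. As raw counts, the mocetinostat C5 values thus lay within the range seen at the lowest concentration of another chemical. In CPM they were 1.92, 2.16 and 1.97, above the panobinostat C1 libraries at 1.83, 1.02 and 0 CPM. Vorinostat C5 replicate 1, with 3 counts in a shallower library, held 2.83 CPM. No other HOX feature left the floor between C1 and C5 in this way. The features compared were not matched for their level, and 1 case is too few to set apart from the background share. With batch 1 left out there were 2 of 263 cases (0.760%, against 3.62% of all features), and with batch 3 left out 3 of 270 (1.11%, against 3.58%).

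The second comparison summed the 38 features other than HOXA2 and HOXB9. In 7 of 8 chemicals the sum at C5 overlapped the sum at C1 or lay below it. Over the chemicals the ratio of the C5 to the C1 mean had a median of 0.986 and ranged from 0.371 in apicidin to 2.57 in mocetinostat. The same sum over the 9081 other features that were above 3 counts in at most 59 libraries had a median ratio of 1.68. It was higher in all C5 than in all C1 libraries in 7 chemicals, all but trichostatin A, where the ratio was 0.806. There the C1 libraries, which include the one that stood apart, held 1928, 2005 and 3348 CPM, and the C5 libraries 1825 to 2070 CPM. A single C1 library thus set that ratio. Of 131 cases of a low HOX feature with any count in a chemical, 59 (45.0%) had a higher mean at C5, against 55.9% of the cases of other low features. Mocetinostat (76.5% against 62.1%) and trichostatin A (66.7% against 46.6%) had the higher share in the HOX features, and the other 6 chemicals the lower. The trichostatin A shares use the same C1 libraries, and the part of the library that stood apart was not tested. The sums are given as a description, since these features were grouped by their counts in the same libraries.

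**Figure D2:**
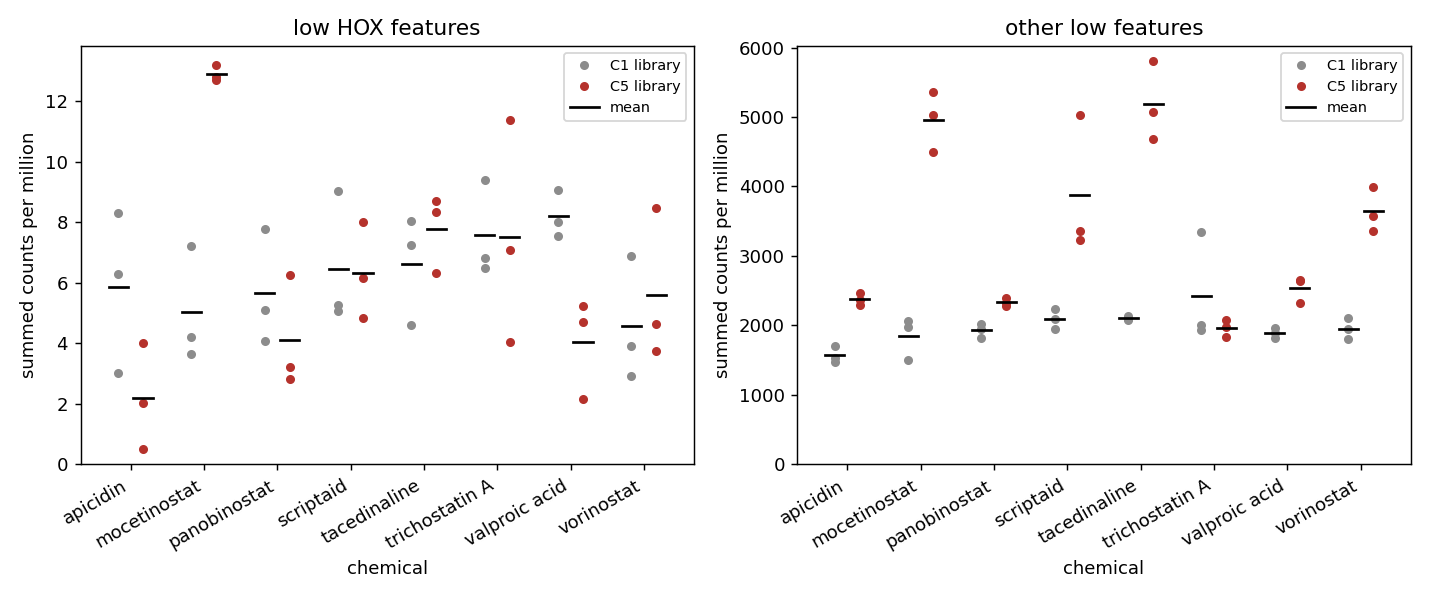
Summed CPM of the 38 low HOX features (left) and of the 9081 other low features (right) in each C1 library (grey) and C5 library (red) of the 8 chemicals, with group means as bars. The other low features were higher at C5 in 7 chemicals, whereas the HOX sum was higher at C5 without overlap only in mocetinostat and lower without overlap in valproic acid.

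Only in mocetinostat were the sum of the low HOX features and that of the other low features both higher at C5 without overlap. The HOX sum was 5.02 ± 1.92 CPM at C1, 3.92 ± 2.97 CPM at C2, 4.44 ± 2.16 CPM at C3, 4.50 ± 2.63 CPM at C4 and 12.9 ± 0.264 CPM at C5 (SD, n = 3 each). The C5 libraries lay between 12.7 and 13.2 CPM, above the highest C1 library at 7.21 CPM. The other low features rose 2.69-fold between C1 and C5, close to the 2.57-fold of the HOX sum, but the course between differed. The means of the other low features at C1 to C5 were 1847, 2298, 2800, 3736 and 4962 CPM, a rise at each step. The HOX means at C2 to C4 did not exceed the HOX mean at C1. Of the 38 HOX features, 13 had a higher mean at C5, 4 had a lower mean and 21 were at 0 in both groups. Only HOXA7 and HOXB13 exceeded 3 counts in all 3 C5 libraries. HOXB13 had 1, 2 and 15 counts at C1 and 7, 16 and 5 at C5, and these groups overlapped. HOXC13, a gene of hair and nail, had 0, 1 and 0 counts at C1 and 0, 6 and 5 at C5. HOXC5, HOXD11 and 1 probe of HOXC6 each had counts in C5 replicate 1 only, 6 or 7 of them. The other probe of HOXC6 had 0 counts in the C1 and C5 libraries. HOXD3 had 7 counts in C5 replicate 3 only. The features with counts at C5 belong to all 4 clusters and were counted in different libraries.

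In apicidin the sum of the low HOX features was 5.87 ± 2.66 CPM at C1 and 2.18 ± 1.76 CPM at C5, and the groups overlapped. In valproic acid it was 8.21 ± 0.782 CPM at C1 and 4.04 ± 1.65 CPM at C5, without overlap, while the other low features rose 1.35-fold. HOXC9 accounted for 3.43 CPM of the C1 sum and 0.926 CPM of the C5 sum in valproic acid. In the remaining 5 chemicals the ratio lay between 0.727 and 1.23.

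The third comparison tested each feature that passed the filter at C5 against C1. A feature was called at an adjusted p-value under 0.05, by edgeR's quasi-likelihood F test with Benjamini-Hochberg adjustment over all features tested, and a fold change of at least 1.5. HOXA2 and HOXB9 passed the filter in all 8 chemicals and HOXC9 in 5, which made 21 tests. HOXD had none. Of the 21 tests, 2 were called, HOXA2 rising in apicidin and HOXB9 falling in vorinostat. Over all features, 25% of the tests in the 8 chemicals were called, with 13.8% rising in apicidin and 24.9% falling in vorinostat. In trichostatin A only 2 of 12993 features were called at C5, so a HOX test not called there is no trait of the HOX genes. The other chemicals had from 1435 calls (valproic acid) to 5529 (vorinostat). At C2, 0 of 21 tests were called (background 0.0865%), at C3 0 (5.98%) and at C4 3 (16%). By unadjusted p under 0.05 there were 0 at C2 and 2 at C3, and DESeq2 called 0 at C2 and 1 at C3. The trend over concentrations gave 3 calls of 21 (25.4%). HOXA2, HOXB9, HOXA7 and the other members with values were chosen after their values were seen, apart from HOXC9, which the rule for named features selected. That rule takes features called by the mean change, so HOXC9 too was selected on its result in these data.

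HOXA2 rose with apicidin. Its counts in replicates 1, 2 and 3 were 23, 24 and 16 at C1, 19, 14 and 15 at C2, 32, 30 and 39 at C3, 94, 23 and 23 at C4, and 71, 35 and 57 at C5. The levels were 4.50 ± 0.548 CPM at C1, 3.75 ± 0.706 CPM at C2, 8.16 ± 1.48 CPM at C3, 12.1 ± 11.4 CPM at C4 and 13.4 ± 4.87 CPM at C5 (SD, n = 3 each). All C3 and C5 libraries lay above all C1 libraries, whereas at C4 1 library was far above and replicate 2 fell within the C1 range. The log2 fold change at C5 was 1.48 (SE 0.508, adjusted p = 0.0317, edgeR). The trend was 1.70 on the log2 scale from C1 to C5 (SE 0.453, adjusted p = 0.00434, edgeR), and 17.2% of all features were called rising by trend in apicidin. C5 exceeded C1 in 3 of 3 batches. The C5 call was lost without batch 1 (adjusted p = 0.121) and without batch 3 (adjusted p = 0.187). The trend call was lost without batch 1 (adjusted p = 0.0690).

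In vorinostat HOXA2 had 9, 18 and 8 counts at C1, 1, 7 and 9 at C2, 4, 6 and 3 at C3, 6, 27 and 23 at C4, and 10, 19 and 10 at C5. The level was 3.97 ± 1.31 CPM at C1, 1.67 ± 1.14 CPM at C2 and 8.71 ± 1.86 CPM at C5, so it dipped at C2 before the highest values at C4 and C5. The C5 libraries lay above all C1 libraries. The change at C5 was not called (log2 1.05, SE 0.659, adjusted p = 0.184, edgeR), and the trend was (log2 1.45, SE 0.567, adjusted p = 0.0374, edgeR), where 24.4% of all features were called rising by trend. That trend call was lost in each of the 3 fits that left out a batch, with adjusted p-values from 0.0772 to 0.174.

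In the other chemicals HOXA2 was not called at C5. Its fitted log2 change lay between -0.11 in scriptaid (SE 0.979) and 0.59 in trichostatin A (SE 0.741) for 5 of them. In valproic acid the counts were 38, 17 and 15 at C1 and 11, 12 and 11 at C5, the level was lower in 3 of 3 batches, and the log2 change was -0.99 (SE 0.468, adjusted p = 0.199, edgeR). A test of whether the C5 change of HOXA2 differed between the chemicals gave an adjusted p of 0.444 (edgeR). Its mean change over the 8 chemicals was 0.38 on the log2 scale (SE 0.234, adjusted p = 0.167, edgeR), with C5 above C1 in 16 of 24 pairs of libraries from the same batch.

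**Figure D3:**
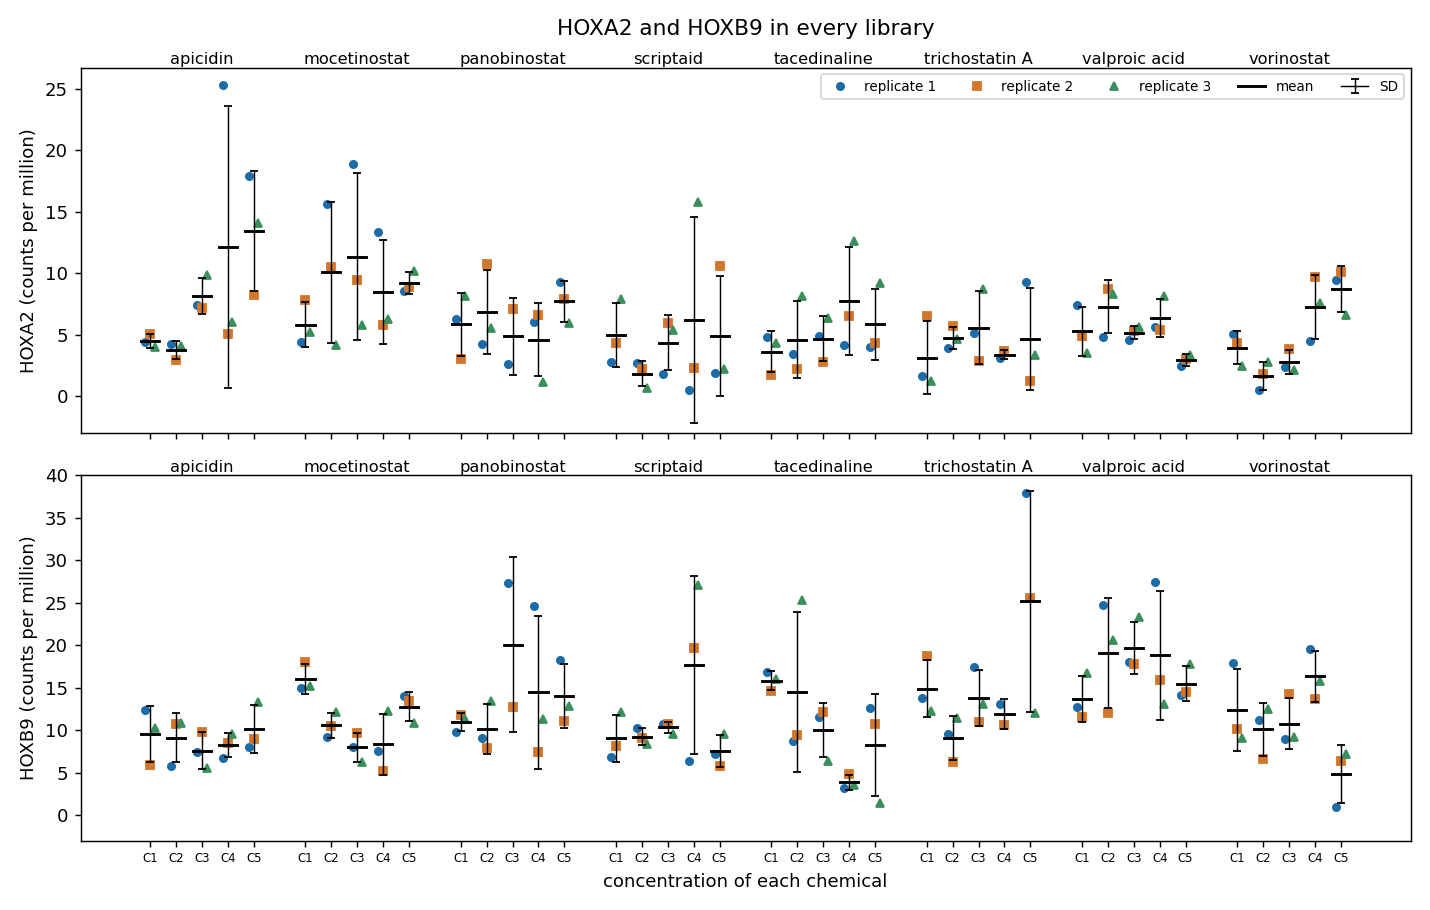
CPM of HOXA2 (top) and HOXB9 (bottom) in every library, by chemical and concentration, with the replicate (HepaRG batch) as the symbol, the group mean as a bar and the SD as a whisker. HOXA2 rose in apicidin from 4.50 to 13.4 CPM, and HOXB9 was lowest at C4 in tacedinaline and at C5 in vorinostat.

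HOXB9 fell in vorinostat at C5. Its counts were 32, 42 and 29 at C1, 23, 26 and 41 at C2, 15, 22 and 13 at C3, 26, 38 and 48 at C4, and 1, 12 and 11 at C5. The level was 12.4 ± 4.83 CPM at C1, 16.3 ± 2.99 CPM at C4 and 4.86 ± 3.42 CPM at C5, so the fall appeared between C4 and C5 only. The log2 fold change at C5 was -1.30 (SE 0.521, adjusted p = 0.0360, edgeR), and the C5 libraries lay below the C1 libraries. Depth fell with it, and replicate 1 at C5 held a single count, below the floor. Without batch 1 the change was -0.62 (adjusted p = 0.431), and without batch 2 the adjusted p was 0.0583. The part of depth in this result was not tested.

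HOXB9 also fell at C4 in the 2 benzamides. In tacedinaline its counts were 21, 51 and 66 at C1, 23, 34 and 118 at C2, 26, 22 and 10 at C3, 7, 18 and 10 at C4, and 22, 27 and 3 at C5. The level was 15.8 ± 1.14 CPM at C1, 3.87 ± 0.882 CPM at C4 and 8.27 ± 5.98 CPM at C5. At C4, where 16.4% of all features were called falling, the log2 fold change was -2.19 (SE 0.537, adjusted p = 0.00117, edgeR), and at C5 it was -1.12 (SE 0.514, adjusted p = 0.0766, edgeR). The C4 call was kept in every alternative that was run. The trend was -1.73 on the log2 scale (SE 0.494, adjusted p = 0.00531, edgeR; 21.5% of all features fell by trend), and without batch 3 its adjusted p was 0.114.

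In mocetinostat the HOXB9 counts were 64, 94 and 61 at C1, 39, 43 and 55 at C2, 29, 45 and 24 at C3, 29, 20 and 45 at C4, and 51, 50 and 33 at C5. The level fell from 16.0 ± 1.71 CPM at C1 to 8.00 ± 1.67 CPM at C3 and 8.36 ± 3.57 CPM at C4, and was 12.8 ± 1.71 CPM at C5. The log2 change was -1.07 at C4 (SE 0.362, adjusted p = 0.0406, edgeR) and -0.52 at C5 (SE 0.356, adjusted p = 0.298, edgeR). At C4, 11.6% of all features were called falling in mocetinostat. With the HepaRG batch as a block, the C4 call was lost (adjusted p = 0.0592), as it was without batch 1 (0.162), without batch 2 (0.420) and without the filter (0.0990). The C4 doses were 30.9 µM for tacedinaline and 2.50 µM for mocetinostat, so no comparison of the pair is made.

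Among the hydroxamates, the HOXB9 change at C5 was 0.79 on the log2 scale in trichostatin A (SE 0.383), 0.26 in panobinostat (SE 0.410), -0.43 in scriptaid (SE 0.538) and -1.30 in vorinostat (SE 0.521). In trichostatin A the counts were 66, 66 and 39 at C1 and 151, 101 and 39 at C5, and the C5 library of replicate 3 lay below all C1 libraries while the others lay above them (adjusted p = 0.524, edgeR). Apicidin (-0.01, SE 0.387) and valproic acid (0.03, SE 0.324) showed values near 0. Scriptaid, tacedinaline and vorinostat lay on plate E and the other 5 chemicals on plate H. Over all 8 chemicals, the test of a difference between them in the C5 change gave an adjusted p of 0.0491 for HOXB9 (edgeR), the only one of 5 HOX features called, where 30.3% of all features were. With the HepaRG batch as a block the adjusted p was 0.0528, and without trichostatin A C1 replicate 3, the library that stood apart, it was 0.117. Within plate H the adjusted p was 0.271 (23.4% of all features were called) and within plate E it was 0.800 (3.15%). The mean change of HOXB9 over the chemicals was -0.33 on the log2 scale (SE 0.157, adjusted p = 0.0616, edgeR), with C5 below C1 in 14 of 24 batch pairs. Over the plate E chemicals it was -1.003 (SE 0.316, adjusted p = 0.00579, edgeR), where 27.5% of all features were called falling, and over the plate H chemicals 0.08 (SE 0.166, adjusted p = 0.736, edgeR). Each chemical lay on 1 plate only, so plate and chemical cannot be told apart in this difference.

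**Figure D4:**
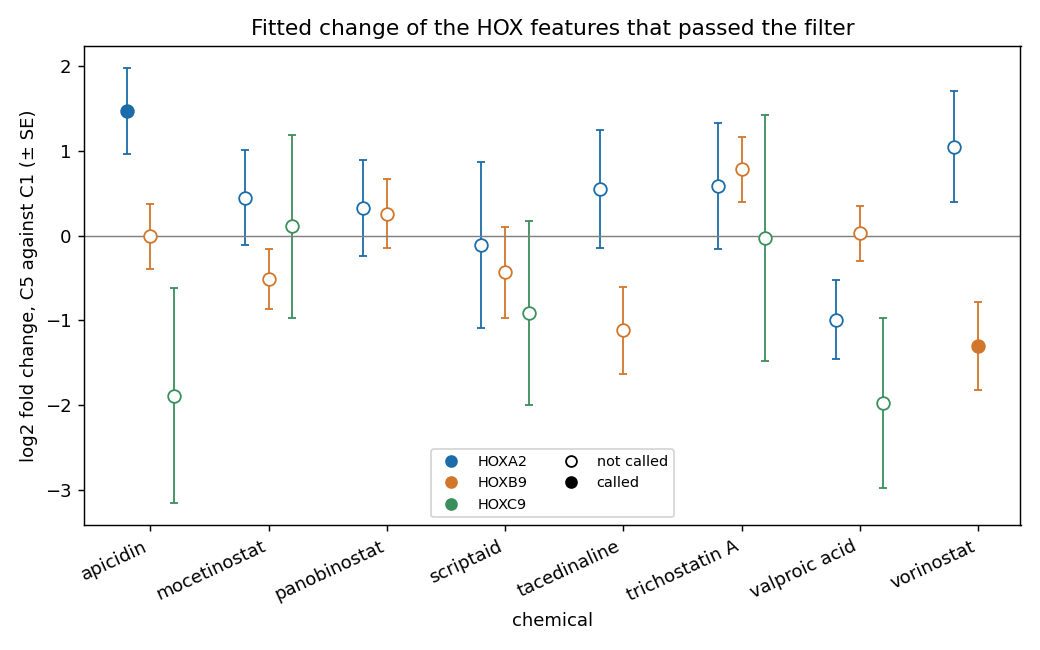
Fitted log2 fold change of HOXA2, HOXB9 and HOXC9 at C5 against C1 in each chemical where the feature passed the filter, with the SE as the error bar, from 3 libraries per group. Filled points are the 2 called changes, HOXA2 in apicidin at 1.48 and HOXB9 in vorinostat at -1.30.

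HOXC9 was lower at C5 when the 8 chemicals were averaged. The mean change was -1.21 on the log2 scale (SE 0.496, adjusted p = 0.0313, edgeR), the only call among the 5 HOX features tested, where 37.2% of all features were called, 22.2% falling. The other 4 were HOXA2, HOXB9, HOXB13 (-0.16, SE 0.488) and HOXC8 (-1.02, SE 0.576, adjusted p = 0.125, edgeR). C5 was below C1 in 19 of 24 batch pairs and above it in 4. The C1 mean over 24 libraries was 1.74 CPM and the C5 mean 0.882 CPM, both close to the floor. The largest counts were in valproic acid, with 22, 11 and 12 at C1, 8, 7 and 7 at C2, and 1, 9 and 1 at C5. In apicidin they were 19, 14 and 1 at C1 and 0, 7 and 1 at C5. In neither chemical alone was the C5 change called (adjusted p = 0.242 in valproic acid and 0.280 in apicidin, edgeR). Without batch 1 the mean change was -1.08 (adjusted p = 0.171). Over the chemicals of plate H alone it was -0.86 (SE 0.592, adjusted p = 0.250, edgeR), where 15.7% of all features were called falling, and HOXC9 did not pass the filter over those of plate E.

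In mocetinostat HOXC9 was called falling at C4 (adjusted p = 0.0282, edgeR), where all 3 libraries had 0 counts, against 5, 5 and 12 at C1. With 3 counts per C4 library, the floor, in place of 0, the C1 mean would be 2.14-fold above C4. The C1 libraries held 1.17, 0.958 and 2.98 CPM, and the C4 floor lay at 0.783 to 0.818 CPM, so 1 library carries much of that figure. At C5 the counts were 0, 12 and 9, and the log2 change was 0.11 (SE 1.08, adjusted p = 0.951, edgeR). Without batch 1 the C4 adjusted p was 0.0621 and without batch 2 it was 0.162.

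At C1 the HepaRG batches were compared with the chemical as a covariate. No HOX feature of 3 tested was called by edgeR, none had an unadjusted p under 0.05, and DESeq2 called none. Over all features the share called was 0.0907%. HOXA2 had 4.61 ± 1.81, 4.73 ± 1.90 and 4.61 ± 2.42 CPM in batches 1, 2 and 3 (SD, n = 8 each), and HOXB9 had 13.2 ± 3.63, 12.4 ± 4.51 and 12.9 ± 2.79 CPM. The batches overlapped throughout in both features.

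Genes around the HOX genes were taken from lists of partners, regulators and neighbours, and their shares stand against the 11.6% of all tests rising and 13.4% falling at C5. Of the TALE cofactors, 5 of 62 tests were rising and 6 falling (8.06% and 9.68%). The 3 CDX genes, which act upstream of posterior HOX genes, passed the filter in no chemical. Of the other Antennapedia-class homeobox genes, 0 of 7 tests were called by edgeR, 3 had an unadjusted p under 0.05, and DESeq2 called 2.

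Genes of retinoic acid synthesis, transport, receptors and breakdown were called rising in 17 and falling in 14 of 76 tests (22.4% and 18.4%). ALDH1A1, which makes retinoic acid from retinaldehyde, fell in 7 chemicals, with log2 changes from -4.50 in tacedinaline to -0.63 in panobinostat. In trichostatin A its change was 0.28 (SE 0.213, adjusted p = 0.715, edgeR). CYP26B1, which breaks retinoic acid down, had 1 probe rising in 5 chemicals with a mean log2 change of 0.82 (SE 0.110). Its other probe passed the filter in no chemical. RARA, a retinoic acid receptor, had 1 probe rising in 4 chemicals and the other in 3. RXRA, the partner of the retinoic acid receptors, had 1 probe falling in 5 chemicals, with a mean log2 change of -1.36 (SE 0.113). CYP26B1, RARA and RXRA were named after their values were seen.

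Polycomb genes were called rising in 20 and falling in 5 of 114 tests (17.5% and 4.39%), and trithorax genes, which oppose them, in 9 and 5 of 65 (13.8% and 7.69%). RING1, a Polycomb ubiquitin ligase, rose in 5 chemicals, with a mean log2 change of 0.95 (SE 0.0546). CBX8, a subunit of a Polycomb complex that binds methylated histone, fell in 3 chemicals, with a mean log2 change of -1.02 (SE 0.159). Both genes were picked with their values known. The medians of the Polycomb genes at C5 lay between -0.12 and 0.52 on the log2 scale in single chemicals, and those of all features between -0.0018 and 0.0842.

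Protein-coding neighbours of the clusters, up to 3 on each side in RefSeq order, were counted far more often than the HOX genes. Of 24 neighbours 23 were matched, and 22 to 24 of their 30 features passed the filter in a chemical, against 2 or 3 of 40 HOX features. At C5, 14 of 188 neighbour tests were rising and 13 falling (7.45% and 6.91%), both below the shares over all features. CALCOCO1, next to HOXC, rose in 5 chemicals (mean log2 change 1.20, SE 0.112). SNX10, near HOXA, had 1 probe falling in 5 chemicals (mean log2 change -1.07, SE 0.0880) and its second probe in 4. CALCOCO1 and SNX10 were named after their values were seen. EVX1 and EVX2, the homeobox genes at the ends of HOXA and HOXD, passed the filter in no chemical.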

How the data were processed

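TempO-Seq counts were analysed for 118 libraries in 40 groups. The authors deposited raw counts per detector probe as whole numbers, without normalization. The submitters' processing notes name bcl2fastq 2.20.422, fastp 0.23.2, STAR 2.7.10b and DESeq2 1.38.0, with no role for each, and the genome build and probe sequences are not given in the sources used here. Of 22069 rows, the final one (a SEC13 probe) was dropped because 88 libraries had no value there, and totals are those of the rows present. Probes of paralogous HOX genes could not be checked for shared sequence.

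Each chemical was fitted alone in R 4.3.3 with edgeR 4.0.16 (filterByExpr, TMM scaling, quasi-likelihood F test, Benjamini-Hochberg adjustment over all features tested), comparing C2 to C5 with C1 and testing a slope on log2 concentration, called the trend. A fit of all 118 libraries gave the mean C5 against C1 change over the 8 chemicals and the test of differences between them, and the 24 C1 libraries gave the batch test. CPM are counts scaled to a library total of 1000000, SE was taken from the size of the log2 change and the root of its F value, and the scripts were tested on simulated data. Alternatives were DESeq2 1.42.0, RLE factors, no filter, no fold threshold, probes summed per gene, a batch block, and leaving out each batch, trichostatin A or the library that stood apart, and each plate alone. The last 2, the sums of low features and other floors were added after seeing the data.

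The labels give replicates 1, 2 and 3 as HepaRG batches 326, 330 and 303, which pairs the samples. As a check, the median correlation between deviations from the group mean was 0.0230 over 232 same-batch pairs and -0.0109 over 464 other pairs. Replicates thus differ in cell batch, and the p-values measure the spread between 3 batches of 1 cell line. Floors cover counting error only, since the reads carry no molecular identifiers. Some single genes are counted in totals and not reported here by name. Members, lists and tests were chosen with earlier results of these data known. The rule for named features gave values for HOX features called at C5 in at least 3 chemicals or by the mean change, and for list genes called in at least 6 chemicals.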

Additional observations from a re-analysis of the deposited data

Results flagged for a closer look

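The change of HOXB9 at C5 against C1 differed between the 8 chemicals in the joint test (adjusted p = 0.0491, edgeR), with fitted changes from 0.79 on the log2 scale in trichostatin A to -1.30 in vorinostat. It was the only HOX feature of 5 for which this held. The value is close to the threshold of 0.05, and it passed that threshold again only with the probes of a gene summed (0.0483), among the alternatives that changed the fit.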

How the results depend on the processing

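The difference between chemicals in HOXB9 was lost, leaving 0 features, under DESeq2 (adjusted p = 0.0507), RLE factors (0.0821), no filter (0.0822), the replicate block (0.0528), and without trichostatin A (0.255) or trichostatin A C1 replicate 3 (0.117), in all 3 fits that left out a batch and within either plate (0 features each). The mean change called 0 features on plate H and 1 (HOXB9 in place of HOXC9) on plate E. At C3, DESeq2 and the fit with probes summed each called 1 HOX feature in place of 0. Without the filter, 26 of 207 HOX tests (12.6%) were called by trend in place of 3 of 21, against 19.6% of all tests, and 22 of the 26 had a mean count under 1. Without the filter 2 were called by the mean change in place of 1. With a batch left out, the calls numbered 0 to 1 at C5 in apicidin and in vorinostat, and 0 to 1 for HOXA rising and for HOXB falling. They numbered 1 to 2 at C4, 1 to 2 by trend and 0 to 1 by the mean change. The cases of a feature leaving the floor numbered 1 to 3, while the share over all features was 3.33% to 3.62% in place of 1.52%. Of the single values of named features under these alternatives, 56 kept their side of the threshold, 18 lost it and none changed sign. Apart from the HOXB9 difference and HOXB9 at C4 in mocetinostat, the replicate block changed no call that was compared. Depth limits these results, since a feature at 3 counts or fewer has no measurable change, and probe efficiency is unknown.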
